A study of Mus musculus with 6 samples.

Results

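The results concern 40 genes of glycolysis and of the response to low oxygen, measured in the mouse mammary carcinoma line 4T1 after the kinase inhibitor TKI258 or its vehicle DMSO. TKI258 (dovitinib) blocks several growth factor receptor kinases, those for FGF, PDGF and VEGF among them. The genes were taken from a list of names that was chosen with earlier results of these data known. They were read from Affymetrix arrays, on which 19938 genes had a probe set with exactly 1 symbol, called all genes below. Each of the 40 was found, Ero1l under its newer symbol Ero1a. Cells of both groups were seeded at 750000 per dish in DMEM with 10% serum, and after 24 h the medium was replaced by the same medium with 500 nM TKI258 (3 dishes) or DMSO (3 dishes) for 16 h. Each dish gave 1 array. Both groups are the same line at 1 dose and 1 time, and the labels name no change of oxygen.

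Glycolysis turns glucose into pyruvate. Glucose enters through GLUT transporters, is committed by hexokinase and phosphofructokinase, and leaves as lactate through lactate dehydrogenase and the MCT transporters, unless pyruvate dehydrogenase passes it to the mitochondria. Most of these steps have several isozymes, each from its own gene. In low oxygen the HIF alpha proteins escape prolyl hydroxylation by the EGLN enzymes, pair with ARNT and bind a short core motif near many glycolytic genes and near other targets, among them the angiogenic factor gene Vegfa and the carbonic anhydrase gene Car9. Tumor cells often run this program with oxygen present, and growth factor signaling through PI3K, MYC and ERK also feeds into it.

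After TKI258 the 40 genes split evenly. Of them 11 were higher, 11 were lower and 18 did not pass in limma's moderated test at a Benjamini-Hochberg adjusted p below 0.05 over all genes. Over all genes 14.4% were higher and 12.6% lower, 27.0% in either direction. That share counts dim genes too. Of the 40 genes 37 had means above the median of all probe set values, 5.01, as did 11215 of all 19938. Retested alone, the 11236 genes with a mean above 5 gave 3041 higher and 2819 lower. Of the 37 listed genes among them, 11 were higher and 13 lower. Each share of all genes given below has this limit. The glucose transporter gene Slc2a1, the lactate transporter gene Slc16a1 and the enzyme genes Ldha, Pfkp and Pgam1 fell, while the isozyme genes Aldoc, Ldhb, Eno2 and Pfkm rose. Pdk2, which encodes a kinase that shuts off pyruvate dehydrogenase, rose most, about 4.04-fold. The other hypoxia targets went both ways as well, with Car12 and Egln3 falling furthest and Ddit4 and Ndrg1 rising furthest. Deposited signals are on a log2 scale, changes below are TKI258 minus DMSO in log2 units with the standard error (SE) of the limma fit, and n = 3 arrays per group.

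**Figure D1:**
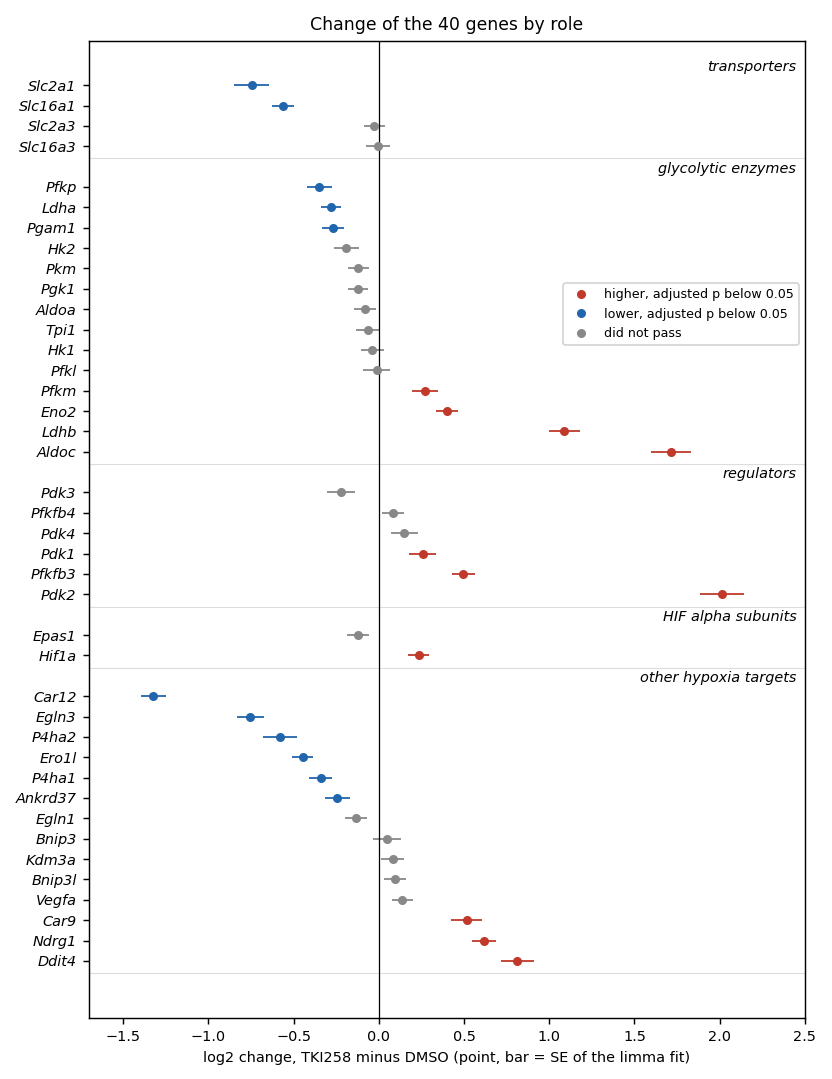
The log2 change (TKI258 minus DMSO) of each of the 40 genes, with bars for the SE of the limma fit, in blocks by role. Red points were higher and blue points lower at an adjusted p below 0.05, and gray points did not pass. The blocks of enzymes and of other targets hold both red and blue points, and the values run from Car12 at -1.32 to Pdk2 at 2.01.

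The 6 arrays were alike in scale, with medians of 4.97 to 5.04. Correlations over genes were 0.997 to 0.998 within groups and 0.988 to 0.990 between them. Of 10 mammary epithelial markers 9 had means above the probe set median, and the other, Cldn7, stood at 4.87 and 5.10. The list mean was 8.24 to 8.31 on the DMSO arrays and 8.52 to 8.58 on the TKI258 arrays, and Krt8 stood at 11.92 and 11.80. Of these 10 markers 5 rose (Cdh1 at 1.09, Krt19 at 0.94, Cldn4 at 0.89, Esrp1 at 0.47 and Cldn3 at 0.24) and 2 fell (Krt18 at -0.50 and Krt7 at -0.39). The fibroblast list mean was 5.17 to 5.26 against 5.77 to 5.79, where 2 of 7 genes (Dcn and Pdgfra) rose and Lum stood at 2.54 and 2.69. The macrophage list mean was 4.19 to 4.27 against 4.33 to 4.42. Of its 5 genes only Cd68 rose, by 0.82 (from 6.70 to 7.52), and Ptprc stood at 3.76 and 3.73. Of 4 endothelial and 3 adipocyte markers 0 passed in limma, also 0 at an unadjusted p below 0.05, with list means of 3.63 to 3.97 in either group. The part of these shifts in the results was not tested. Array medians differ slightly by the genes chosen. Centring each array on its median over genes moved the median change of all genes from 0.01 to -0.09. It left 1970 genes higher and 4300 lower, against 2866 and 2519 as deposited, and 8 of the 40 genes higher and 18 lower. In these whole-dish samples fewer cells of a type and less RNA per cell cannot be told apart. Directions of genes that did not pass are therefore given as values only.

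Promoters of the list were read for the HIF core motif, since HIF binds it near many glycolytic genes and other targets. The core was searched as the letters ACGTG and GCGTG on either strand in the 250 bases before each annotated start, in RefSeq promoters of build GRCm38.p6, which held 36 of the 40 genes. At least 1 start had a match in 33 of the 36 genes (91.7%), against 41.5% of all genes in that table, and 76.5% of the 51 starts against 38.6% of all 32851. These windows had a median GC content of 61.6% and 14 CpG pairs, against 52.4% and 6 over all promoters, and each match holds 1 CpG. A match was found in 9 of 10 genes that were higher, 10 of 11 that were lower and 14 of 15 that did not pass. Both directions were thus found among genes that carry the letters, and the windows of Tpi1, Eno2 and Car12 held none. The letters CACGTG contain ACGTG on both strands and are also the E-box read by MYC and other factors. They stood in 7 of the 36 genes (19.4%), against 6.86% of all genes.

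Shown here are the 250 bases before the first listed start of 2 genes that fell (Ldha and Slc2a1) and 2 that rose (Aldoc and Pdk2), 5′ to 3′ on the strand of the gene, with matches in capitals. Ldha is read at chr7:46845554-46845803 (plus strand), Slc2a1 at chr4:119108495-119108744 (plus), Aldoc at chr11:78322823-78323072 (plus) and Pdk2 at chr11:95041372-95041621 (minus).
Ldha: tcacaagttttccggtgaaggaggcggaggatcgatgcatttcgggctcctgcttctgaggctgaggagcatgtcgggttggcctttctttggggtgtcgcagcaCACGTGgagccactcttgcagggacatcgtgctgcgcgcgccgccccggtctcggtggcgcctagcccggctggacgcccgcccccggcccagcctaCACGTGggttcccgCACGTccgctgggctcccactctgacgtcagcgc
Slc2a1: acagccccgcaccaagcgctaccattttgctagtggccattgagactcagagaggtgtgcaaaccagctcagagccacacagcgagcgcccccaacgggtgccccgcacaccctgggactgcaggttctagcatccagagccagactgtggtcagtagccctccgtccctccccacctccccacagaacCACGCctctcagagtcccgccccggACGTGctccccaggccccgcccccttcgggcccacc
Aldoc: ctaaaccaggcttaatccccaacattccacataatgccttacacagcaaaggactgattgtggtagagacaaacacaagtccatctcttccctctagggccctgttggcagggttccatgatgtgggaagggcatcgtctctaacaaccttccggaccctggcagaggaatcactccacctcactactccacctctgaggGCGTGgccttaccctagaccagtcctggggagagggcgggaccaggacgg
Pdk2: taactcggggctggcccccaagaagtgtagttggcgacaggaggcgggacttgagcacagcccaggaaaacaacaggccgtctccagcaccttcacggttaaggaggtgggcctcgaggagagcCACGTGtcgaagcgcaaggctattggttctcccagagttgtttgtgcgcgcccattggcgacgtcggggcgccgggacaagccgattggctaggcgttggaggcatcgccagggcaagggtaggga
The Ldha window has capitals that begin 145, 48 and 34 bases before the start, and the first and second of these are CACGTG. Slc2a1 has matches that begin 61 and 36 bases before its start. Aldoc has a single match, 50 bases before, and Pdk2 a single CACGTG, 126 bases before. A match here describes letters and shows no binding.

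Of 4 transporter genes 2 fell and 0 rose, beside 12.6% lower and 14.4% higher over all genes. Slc2a1 encodes GLUT1, the main glucose carrier of many tumor cells. It measured 10.73, 10.80 and 10.97 on the DMSO arrays and 10.21, 9.89 and 10.16 on the TKI258 arrays. Every TKI258 array was below every DMSO array, and the fall was 0.75 (SE 0.10, adjusted p = 0.000516). Slc16a1 encodes MCT1, a proton-coupled carrier of lactate and pyruvate. Its signals were 11.07, 11.10 and 11.13 with DMSO against 10.48, 10.58 and 10.55 with TKI258. The groups stood far apart relative to their spread, with a fall of 0.56 (SE 0.06, adjusted p = 0.000166). Slc2a3 (GLUT3) at 3.74 ± 0.05 and 3.72 ± 0.03 (SD, n = 3) was under the probe set median, 5.01, and Slc16a3 (MCT4) at 5.07 ± 0.03 and 5.06 ± 0.10 lay close to it. Neither passed, and the array table has no detection calls.

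Of 14 enzyme genes 4 rose, 3 fell and 7 did not pass, so 50% were called, beside 27.0% of all genes. All 14 had means above the probe set median, while the 27.0% counts dim genes too. Among the 11236 genes with a mean above 5, retested alone, 3041 rose and 2819 fell. The median log2 change of the 14 enzyme genes was -0.07, beside 0.01 over all genes. At the first step, Hk2, the inducible hexokinase gene, had a change of -0.19 (95% interval -0.36 to -0.02, adjusted p = 0.0958) and did not pass, although its TKI258 values of 9.00, 8.85 and 8.81 lay below all DMSO values (9.16, 9.04 and 9.04). It passed in 4 of 14 alternatives, namely without TKI258 replicate 1 (adjusted p = 0.0426), with median centring (adjusted p = 0.0182), with dim genes left out (adjusted p = 0.0426) and with trend and robust (adjusted p = 0.0393). Hk1, the widely expressed hexokinase gene, is uncertain here. Its brightest probe set lists a single accession, which 18 probe sets list, and 16 of these also name the ribosomal protein gene Rpl17. That probe set read 12.50 ± 0.05 and 12.46 ± 0.08 (SD, n = 3), a change of -0.04. The other Hk1 probe set, which lists RefSeq transcripts, read 9.36 and 9.41, a change of 0.04, and neither passed.

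Phosphofructokinase, the committing step, has platelet, liver and muscle type genes, and they did not move alike. Pfkp fell, from 9.45, 9.59 and 9.61 to 9.25, 9.10 and 9.25, by 0.35 (SE 0.07, adjusted p = 0.00666). Pfkm rose, from 9.16, 9.11 and 9.14 to 9.46, 9.26 and 9.50, by 0.27 (SE 0.08, adjusted p = 0.0283). The groups of each gene did not overlap, but the Pfkm call was lost without DMSO replicate 1, 2 or 3 (adjusted p = 0.0699, 0.0915 and 0.0749), or TKI258 replicate 1 or 3 (adjusted p = 0.0802 and 0.0772), and under either centring (adjusted p = 0.133 and 0.0553), and across 14 alternatives its adjusted p lay between 0.00557 and 0.133. Within arrays Pfkm minus Pfkp rose by 0.62. Pfkl overlapped between groups, with a change of -0.01 (95% interval -0.20 to 0.17).

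Aldolase splits fructose bisphosphate, and 1 of its 2 listed genes changed. Aldoc, the brain-type isozyme gene, measured 8.27, 8.20 and 8.45 with DMSO and 10.20, 9.75 and 10.10 with TKI258. That is a rise of 1.71 (SE 0.12, adjusted p = 1.20e-05), or 3.28-fold, with no overlap. Aldoa, the isozyme gene of muscle and most proliferating cells, read 12.17 ± 0.06 and 12.09 ± 0.04 (SD, n = 3). Its groups overlapped, and its change of -0.08 (95% interval -0.23 to 0.06) did not pass. Within arrays Aldoc minus Aldoa rose by 1.79.

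Tpi1 did not pass, with a change of -0.07. In the lower part of the pathway, where ATP is made, Pgk1 and Pkm did not pass either, with changes of -0.12 and -0.12. Pgk1 and Pkm nonetheless had TKI258 arrays that were all below the DMSO arrays, and both passed with a variance trend and robust moderation (adjusted p = 0.00929 and 0.0195) and with median centring over genes (adjusted p = 0.0174 and 0.0175). Pgam1, the phosphoglycerate mutase gene, fell from 11.18, 11.15 and 11.23 to 10.90, 10.88 and 10.98, by 0.27 (SE 0.06, adjusted p = 0.0116). Eno2, the neuron-type enolase gene, rose from 6.62, 6.61 and 6.64 to 6.95, 7.08 and 7.04, by 0.40 (SE 0.06, adjusted p = 0.00138). The groups of both genes stood apart. The splice forms of Pkm were not separated here.

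Lactate dehydrogenase is a tetramer of A and B chains, and their genes went opposite ways. Ldha, whose chain favors the making of lactate, measured 12.85, 12.80 and 12.83 with DMSO and 12.55, 12.51 and 12.57 with TKI258. It fell by 0.28 (SE 0.06, adjusted p = 0.00687), a small step that was large against the spread of the arrays. Ldhb, the heart-type chain, read 5.66, 5.47 and 5.65 against 6.54, 6.70 and 6.81. It rose by 1.09 (SE 0.09, adjusted p = 3.20e-05), or 2.13-fold. Ldhb was dim, with a DMSO mean of 5.59 against a probe set median of 5.01. Its dimmer probe set read 4.78 with DMSO and 5.58 with TKI258. Within arrays Ldhb minus Ldha rose by 1.37, with SD of 0.09 among DMSO and 0.13 among TKI258 arrays.

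**Figure D2:**
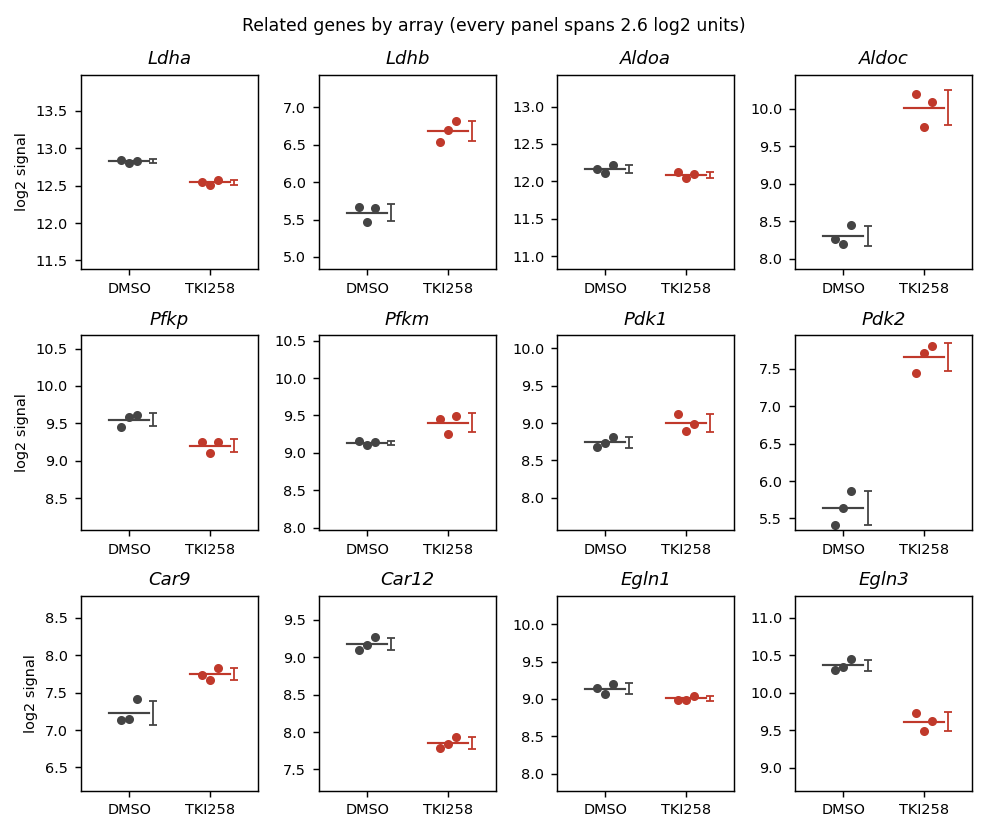
Log2 signal of 12 genes on each array (points), with the group mean (line) and SD (bar, n = 3), DMSO in gray and TKI258 in red. Every panel spans 2.6 log2 units, so steps can be compared between panels: Ldhb, Aldoc and Pdk2 rise by 1.09, 1.71 and 2.01, while Ldha and Aldoa move by -0.28 and -0.08.

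The regulators hold the flux-setting kinases of both ends of glycolysis. Of these 6 genes 3 rose, 0 fell and 3 did not pass, beside 14.4% higher and 12.6% lower over all genes, with a median change of 0.20. Pfkfb3 encodes a bifunctional enzyme that makes fructose 2,6-bisphosphate, the activator of phosphofructokinase. It rose from 6.71, 6.71 and 6.65 to 7.09, 7.26 and 7.21, by 0.50 (SE 0.07, adjusted p = 0.000578), without overlap. Its relative Pfkfb4 read 6.98 ± 0.01 and 7.06 ± 0.07 (SD, n = 3), and its change of 0.08 did not pass.

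Pyruvate dehydrogenase kinases phosphorylate and switch off the entry of pyruvate into the mitochondria. Pdk2 measured 5.41, 5.65 and 5.86 on the DMSO arrays and 7.44, 7.72 and 7.81 on the TKI258 arrays. The gap between the groups was wider than the range within either, with a rise of 2.01 (SE 0.13, adjusted p = 8.08e-06). The DMSO mean of Pdk2, 5.64, was not far above the probe set median of 5.01. Pdk1, the kinase gene best known as a HIF target, rose from 8.68, 8.74 and 8.82 to 9.12, 8.89 and 8.99, by 0.26 (SE 0.08, adjusted p = 0.0375). That call was lost without DMSO replicate 1, 2 or 3 (adjusted p = 0.136, 0.101 and 0.0504), or TKI258 replicate 1 or 3 (adjusted p = 0.107 and 0.0696), under either centring (adjusted p = 0.166 and 0.0664) and with the replicate block (adjusted p = 0.0607), and across 14 alternatives its adjusted p lay between 0.0103 and 0.166. Pdk3 had a change of -0.22 (95% interval -0.41 to -0.04, adjusted p = 0.0804), and Pdk4, a starvation-induced member, 0.15 (adjusted p = 0.227) at a DMSO level of 3.27, below the probe set median. Within arrays Pdk2 minus Pdk1 rose by 1.76 and Pdk2 minus Pdk3 by 2.24.

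The HIF alpha subunits are regulated mainly as proteins, so their transcripts give only a part of their state. Hif1a rose from 10.84, 10.90 and 10.82 to 11.05, 11.13 and 11.09, by 0.23 (SE 0.06, adjusted p = 0.0201), with no overlap. The call was lost without DMSO replicate 1 or 3 (adjusted p = 0.0769 and 0.0728) or TKI258 replicate 2 (adjusted p = 0.0688), and with median centring over genes (adjusted p = 0.161), and across 14 alternatives its adjusted p lay between 0.000566 and 0.161. Epas1, which encodes HIF-2 alpha, read 4.28 ± 0.02 and 4.16 ± 0.06 (SD, n = 3), under the probe set median, and did not pass.

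Of 14 other hypoxia targets 3 rose, 6 fell and 5 did not pass, so 64.3% were called, beside 27.0% of all genes. All 14 targets had means above the probe set median, while the 27.0% counts dim genes too. Among the 11236 genes with a mean above 5, retested alone, 3041 rose and 2819 fell. The median change of the 14 targets was -0.04, against -0.07 for the enzymes. With single arrays left out the medians ranged from -0.09 (without TKI258 replicate 3) to -0.05 (without TKI258 replicate 2) for the enzymes. For the targets they ranged from -0.08 (without DMSO replicate 2) to -0.03 (without TKI258 replicate 2). Enzyme changes ran from -0.35 to 1.71 and target changes from -1.32 to 0.81, and no test of that difference was made.

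**Figure D3:**
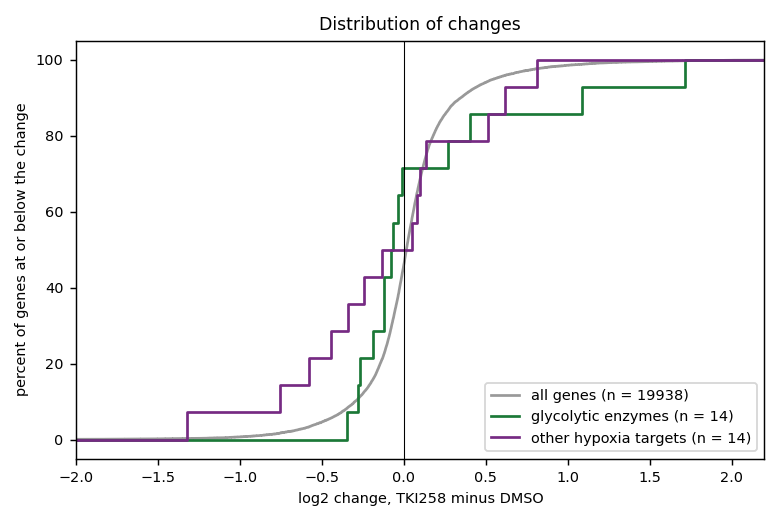
Percent of genes at or below each log2 change, for all 19938 genes (gray), 14 glycolytic enzyme genes (green) and 14 other hypoxia targets (purple). Of the 2 lists, the purple curve starts further left, at -1.32, and the green curve reaches further right, at 1.71, and both cross the midpoint close to 0.

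The carbonic anhydrases of the cell surface, which help cells export acid, went opposite ways. Car12 measured 9.10, 9.16 and 9.27 with DMSO and 7.78, 7.84 and 7.94 with TKI258. It fell by 1.32 (SE 0.07, adjusted p = 3.90e-06), the furthest fall of the 40 genes. Car9 rose from 7.13, 7.15 and 7.42 to 7.73, 7.67 and 7.84, by 0.52 (SE 0.09, adjusted p = 0.00242). Neither gene's groups overlapped, and within arrays Car9 minus Car12 rose by 1.84.

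The prolyl hydroxylases divide into those that mark HIF and those that build collagen. Egln3 (PHD3), an oxygen sensor gene that HIF itself induces, fell from 10.30, 10.35 and 10.45 to 9.73, 9.48 and 9.63, by 0.75 (SE 0.08, adjusted p = 0.000137). Egln1 (PHD2), the main oxygen sensor gene, had a change of -0.13 (95% interval -0.28 to 0.02) and did not pass, though its TKI258 arrays all lay lower. P4ha1 and P4ha2 encode the catalytic subunits of collagen prolyl hydroxylase. P4ha1 fell from 10.03, 10.07 and 10.11 to 9.79, 9.64 and 9.75, by 0.34 (SE 0.07, adjusted p = 0.00449). P4ha2 fell from 6.84, 6.86 and 7.10 to 6.38, 6.18 and 6.50, by 0.58 (SE 0.10, adjusted p = 0.00231). Both collagen enzyme genes were thus lower on every TKI258 array. Ero1l, the oxidase gene that forms disulfide bonds in the endoplasmic reticulum, fell from 10.29, 10.20 and 10.23 to 9.84, 9.76 and 9.77, by 0.45 (SE 0.06, adjusted p = 0.000664).

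Ddit4 (REDD1), an inhibitor of mTORC1 that is also induced by stress and by FOXO and p53, rose from 7.82, 7.80 and 7.93 to 8.63, 8.49 and 8.86. The rise was 0.81 (SE 0.10, adjusted p = 0.000248). Ndrg1, a differentiation-related gene often read as a hypoxia marker, rose from 10.26, 10.24 and 10.41 to 10.93, 10.89 and 10.95. Its rise was 0.62 (SE 0.07, adjusted p = 0.000185), and for both genes every TKI258 array was the higher. Ankrd37 fell from 5.70, 5.63 and 5.79 to 5.42, 5.55 and 5.43, by 0.24 (SE 0.07, adjusted p = 0.0320). That call was lost without DMSO replicate 1 or 3 (adjusted p = 0.0889 and 0.120) or TKI258 replicate 1 or 3 (adjusted p = 0.0866 and 0.0751), with trend and robust (adjusted p = 0.0519) and with the replicate block (adjusted p = 0.0614), and across 14 alternatives its adjusted p lay between 0.00512 and 0.120.

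Several standard HIF targets did not pass. Vegfa, the angiogenic ligand gene, read 8.19 ± 0.04 and 8.33 ± 0.05 (SD, n = 3), a change of 0.14 (95% interval -0.01 to 0.28, adjusted p = 0.157) without overlap. The mitophagy receptor genes Bnip3 and Bnip3l had changes of 0.05 and 0.10, with 95% intervals of -0.14 to 0.24 and -0.05 to 0.24. Kdm3a, a histone demethylase gene, had a change of 0.08 (95% interval -0.07 to 0.24). The groups of these last 3 overlapped, and each interval excludes a 2-fold change.

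**Figure D4:**
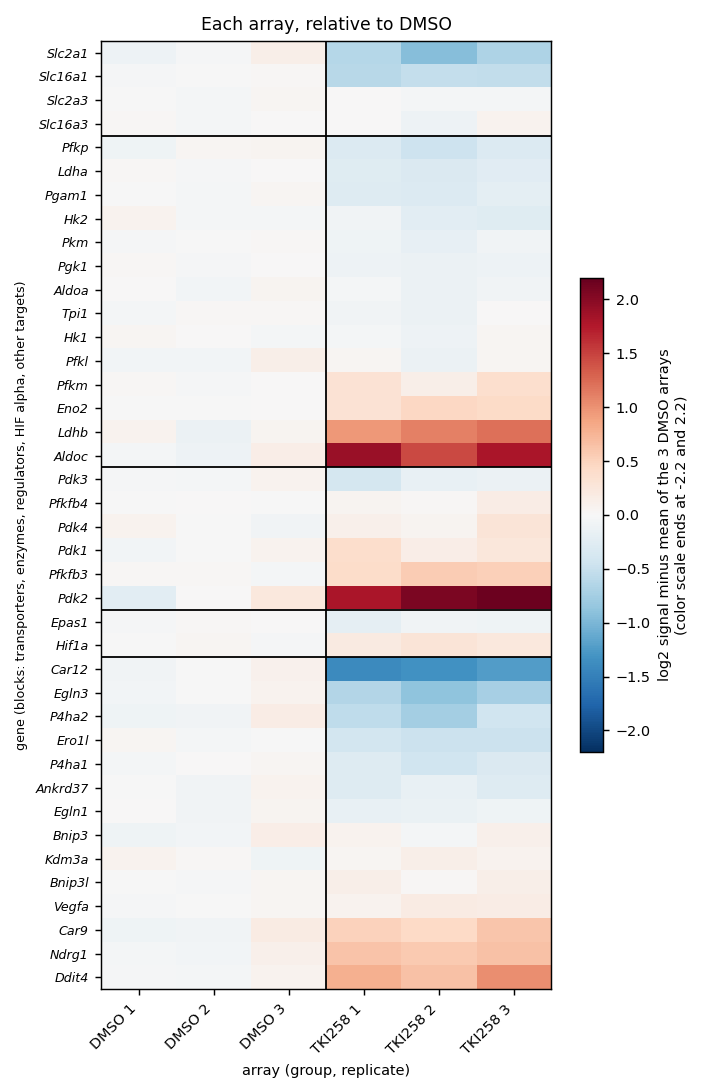
Each array's log2 signal minus the mean of the 3 DMSO arrays, for the 40 genes in blocks by role (rows) and the 6 arrays (columns). The 3 TKI258 columns are alike within a row: Pdk2 and Aldoc are red in each of them, and Car12, Egln3 and Slc2a1 are blue in each.

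Over the 40 genes the groups did not overlap for 30, of which 13 were higher and 17 lower. Over all genes 40.2% had groups that did not overlap. Among related genes 11 pairs were compared by their within-array difference, and in 10 of them the groups did not overlap. The exact two-sided permutation p was 0.1 for each of these 10, the smallest that 3 against 3 arrays can give, and 0.11 after adjustment over the 11 pairs. Bnip3 and Bnip3l were the exception, with an exact permutation p of 0.7. The pairs were chosen with earlier results of these data known, so their count is description only. No share over other gene pairs was computed. The pair of Hk2 and Hk1 rests on the uncertain Hk1 probe set.

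The rest of the pathway was read from lists of genes outside the 40. Among 15 measured genes of a list of further glycolysis enzymes and sugar transporters 5 rose, 2 fell and 8 did not pass, so 46.7% were called, beside 27.0% of all genes. Slc2a6, a GLUT family gene, rose by 1.25 (SE 0.11, adjusted p = 5.77e-05), Pfkfb2 by 0.50, the muscle enolase gene Eno3 by 0.44, Slc2a8 by 0.41 and Ldhd by 0.31. Adpgk, an ADP-dependent glucokinase gene, fell by 0.43. Gapdh and 5 others of the 21 listed genes had no probe set with that symbol alone and were not analysed here. Of 7 pentose phosphate genes H6pd rose by 0.48 and the other 6 did not pass, a share of 14.3%, beside 27.0% of all genes. All 7 had means above the probe set median, while the 27.0% counts dim genes too.

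At the entry of pyruvate to the mitochondria 1 of 12 genes rose and 3 fell, so 33.3% were called, beside 27.0% of all genes. All 12 had means above the probe set median, while the 27.0% counts dim genes too. Among the 11236 genes with a mean above 5, retested alone, 3041 rose and 2819 fell. Pdp1, the phosphatase gene that opposes the PDK kinases, fell from 8.71 ± 0.07 to 7.67 ± 0.18 (SD, n = 3), by 1.04 (SE 0.09, adjusted p = 5.51e-05). Pdpr, which encodes the regulatory subunit of that phosphatase, rose by 0.67. The malic enzyme gene Me2 fell by 0.72 and Pdhx, a subunit gene of the dehydrogenase complex, by 0.27. Pdha1, Pdhb and Dlat, its core subunits, did not pass. Of 13 glycogen and gluconeogenesis genes 4 rose and 1 fell, 38.5% called beside the same 27.0%. Ugp2, which makes UDP-glucose for glycogen, rose by 1.19 (SE 0.08, adjusted p = 8.18e-06), the mitochondrial PEPCK gene Pck2 by 0.55, the phosphorylase gene Pygb by 0.46 and the glycogen synthase gene Gys1 by 0.33, while Pgm2 fell by 0.22.

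Of 10 genes of the HIF machinery 4 rose and 1 fell, beside 14.4% higher and 12.6% lower over all genes. Cited2, a competitor of HIF for its coactivator and itself a HIF target, rose by 0.70 (SE 0.07, adjusted p = 0.000104). Arnt, the HIF beta subunit gene, rose by 0.40, Os9 by 0.36 and another HIF prolyl hydroxylase gene, Egln2, by 0.30, while Siah2, a ubiquitin ligase gene, fell by 0.53. Among 28 further hypoxia targets 9 rose and 7 fell, so 57.1% were called beside 27.0% of all genes, with a median of -0.04. Gadd45a at 1.23, Nfil3 at 1.01 and Bhlhe41 at 0.91 rose furthest, and these have many inducers besides HIF. Stc1 at -1.0, Maff at -0.86 and the transferrin receptor gene Tfrc at -0.71 fell furthest. As among the 40, this list held genes of both directions, and what moved the genes of either direction was not tested.

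**Figure D5:**
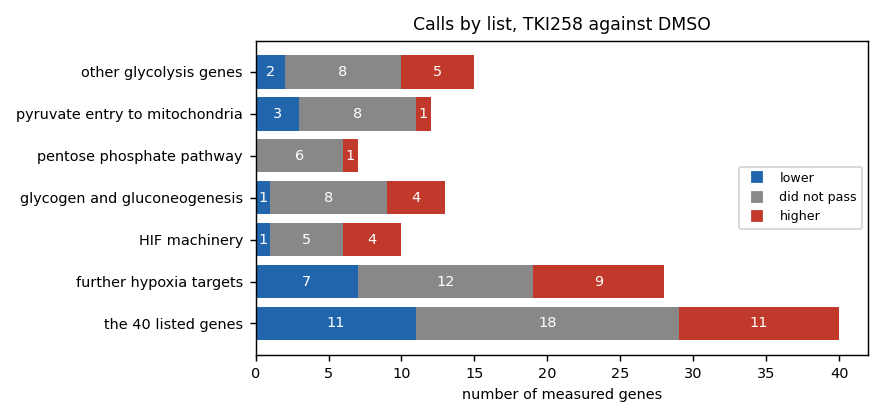
Number of measured genes that were lower (blue), did not pass (gray) or were higher (red) after TKI258 in 6 lists of related genes and in the 40 listed genes. Lists of hypoxia targets and the 40 genes hold blue and red in like numbers, 7 and 9 of 28 and 11 and 11 of 40.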

How the data were processed

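The authors deposited a log2 signal for each of 35557 probe sets on each array. Per the submitters' processing notes, the tools named are RMA, affy and limma, with no version or role given. The log2 scale was inferred from the range and the near-equal quartiles. RMA as usually run shrinks changes of dim probe sets and hides a shift shared by all genes. The number of arrays limits the precision.

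Probe sets with exactly 1 symbol in the 2016 platform annotation (21789) were used, the brightest over all 6 arrays per gene, giving 19938 genes. Arrays were compared in limma 3.58.1 (R 4.3.3) with lmFit and eBayes, two-sided, with Benjamini-Hochberg adjustment over all genes, a threshold of 0.05 and no filter. Simulated data for TKI258 against DMSO, over 19938 genes, served to check the test. It found 6 of 50 genes changed by 0.25 log2 units, 45 of 50 changed by 0.5 and all 50 changed by 1 or by 2, and 13 of its 164 calls were false. The data gave 5385 calls, so the adjusted threshold was stricter in the simulation, and these shares do not give the power here.

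The 40 genes, the pathway lists and the pairs were chosen with earlier results of these data known. Of genes outside the 40, those past the threshold were named, at most 6 per list by size of change, beside markers and uncalled subunits given for context. Gene names and promoters came from RefSeq tables of GRCm38.p6. Alternatives comprised a block for the replicate number, single arrays left out, a second quantile normalization, arrays centred on their medians, genes with a mean above 5 only, probe sets averaged per gene, and eBayes with trend and robust. Centring on all probe sets and probe sets that list a RefSeq transcript were added after seeing the data.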

Additional observations from a re-analysis of the deposited data

Results flagged for a closer look

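Probe sets that did not stand for their gene were tested singly over all 35557 probe sets, and in 2 of them the TKI258 arrays differed from the DMSO arrays. The dimmer Ldhb probe set rose by 0.80 (adjusted p = 0.0327 in limma), below the 1.09 of the brighter one. A second Pgam1 probe set had a change of -0.27 (adjusted p = 0.0278), with values identical to those of the one used, so it adds no measurement, and the remaining Pgam1 probe set had -0.21 (adjusted p = 0.0762). Of the 7 genes with several probe sets, the others had 0 called.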

How the results depend on the processing

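Of the 22 genes past the threshold, 18 kept their direction and their call in each of 14 alternatives, and the other 4 (Pfkm, Pdk1, Ankrd37 and Hif1a) kept their direction but lost the call in at least 1. Median centring over genes raised the count of lower genes among the 40 to 18, with medians of -0.18 for the enzymes and -0.15 for the other targets. This centring moves the change of every gene by the same amount. The move was downward here since medians over genes were on average higher on the TKI258 arrays. Centring on all probe sets instead gave 9 higher and 11 lower, and which centring is the better one was not tested. With single arrays left out, 8 to 10 of the 40 were higher and 10 to 11 lower, and the medians ranged from -0.093 to -0.047 and from -0.076 to -0.031. Of the 18 genes that did not pass, 7 passed in at least 1 alternative and 7 changed sign. Single arrays left out gave -0.076 to 0.00093 for Hk1, -0.045 to 0.049 for Pfkl and -0.047 to 0.047 for Slc16a3, with 0.0056 without DMSO replicate 1 and 0.0011 without DMSO replicate 3 for Slc16a3 and 0.044 without TKI258 replicate 2 for Pfkl. Renewed quantile normalization gave 0.043 for Pfkl. Median centring gave -0.024 for Pfkfb4, -0.059 for Bnip3, -0.011 for Bnip3l and -0.024 for Kdm3a. Hk1 had 0.0024 as the mean of its probe sets and 0.043 from the probe set that lists RefSeq transcripts. The cause of the other sign changes was not tested. Of the 40 genes 3 (Slc2a3, Pdk4 and Epas1) dropped out under the filter on dim genes, so it gave no value for them.

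With the replicate block 10 of the 40 were higher and 10 lower, and Pdk1 and Ankrd37 lost their calls (adjusted p = 0.0607 and 0.0614). The numbers were not taken to pair the dishes, since deviations of same-numbered arrays correlated at 0.02, 0.05 and 0.15, and DMSO replicates 1 and 2 correlated best with another number.

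The arrays carry no detection calls. The 4 calls lost in at least 1 alternative had changes of 0.27 (Pfkm), 0.26 (Pdk1), -0.24 (Ankrd37) and 0.23 (Hif1a). Pgam1 at -0.27 and Ldha at -0.28 kept their calls in each of the 14 alternatives.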
